A study of Homo sapiens with 32 samples.

Results

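CIT, ANLN, ECT2, RACGAP1, PRC1 and SHCBP1 are 6 human genes whose proteins act in cytokinesis, the physical separation of the daughter cells at the end of mitosis. All 6 were found by symbol among the 19023 genes of the deposited count table, and all 6 passed the filter on low counts in both assays. They were picked by name from an earlier account of these same libraries, with their RNA, footprint and ratio time courses in view. Their own changes over time are therefore a description. How many of them lay past the threshold of the fit across all genes is stated as a count beside the share of all genes, and nothing is read from it. Calls are also given for wider lists of cytokinesis genes. Those lists too were drawn up with results of these data known, so their calls are likewise a description.

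The cells were RPE-1, an immortalised human line from retinal pigment epithelium, wild type per the labels. The line can stop dividing when serum is withdrawn and re-enter the cell cycle when serum returns. Whether the cells used here had stopped dividing at 0 h was not tested. After 18 h without serum they were given serum and harvested 0, 5, 10 or 15 h later, and the labels name no other agent or genotype. Total RNA (RNA-seq) and ribosome-protected fragments (footprints, Ribo-seq) were sequenced at each time in 4 libraries each, 32 libraries in all. Footprints count ribosomes on coding sequence, so the ratio of footprints to RNA, called translational efficiency (TE), is a relative measure of ribosomes per mRNA. No sample used here was kept starved to the later times, so an effect of serum cannot be told apart from one of time in culture.

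Each RNA library held 595851 to 1107470 counts and each footprint library 2851423 to 9901322. Of 10 markers of pigment epithelium, MITF averaged 14.6 to 30.7 CPM (each library's counts scaled to the same total) in RNA and OTX2 2.18 to 15.6 CPM, while the visual-cycle enzyme RPE65 and the pigment enzyme TYR stayed at or below 0.27 CPM at every time in both assays. Among blood and endothelial markers CD68 was present at 14.7 to 20.9 CPM in RNA, and HBB had no count in either assay. Libraries were scaled within each assay and the labels name no spike-in, so every level is relative to the other genes, and in a culture fewer expressing cells cannot be told apart from less RNA per cell.

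Cytokinesis begins when the spindle midzone forms between the separating chromosomes and marks the plane of division. PRC1 bundles the antiparallel microtubules of the midzone, and RACGAP1 with its kinesin partner KIF23 forms centralspindlin, which gathers there. Centralspindlin recruits ECT2, the exchange factor that activates the GTPase RhoA at the cell equator. Active RhoA drives assembly of the contractile ring, in which anillin (ANLN) ties together actin, myosin and septins, and citron kinase (CIT) acts at the furrow and later at the midbody. SHCBP1 is a SHC-binding protein that has been placed at the midbody with centralspindlin. Genes of this kind are known as late cell-cycle genes, low in resting cells and most active in G2 and mitosis. Many carry a promoter element called the cell-cycle genes homology region (CHR), bound by MuvB complexes that repress in rest and activate late in the cycle, often with CCAAT boxes bound by NF-Y.

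The promoters are shown because the members moved together over the time course and because CHR and CCAAT letters are what such genes are known for. RefSeq windows of 300 bases (250 before and 50 after the annotated start, build GRCh38.p14) were held for 5 members, ECT2 with windows at 2 starts. The stretches below run 5′ to 3′ on the strand of the gene from 150 bases before the start to base 30 after it, and capitals mark every CHR match (TTTGAA or TTCGAA) and every CCAAT match on either strand. They cover chr12:119877291-119877470 (minus strand), chr7:36389712-36389891 (plus), chr3:172750576-172750755 (plus, upstream start), chr15:90994506-90994685 (minus) and chr16:46621350-46621529 (minus).

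CIT: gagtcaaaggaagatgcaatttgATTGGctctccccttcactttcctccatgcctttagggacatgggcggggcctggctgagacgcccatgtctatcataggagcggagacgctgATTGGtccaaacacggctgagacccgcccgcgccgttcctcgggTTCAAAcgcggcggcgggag
ANLN: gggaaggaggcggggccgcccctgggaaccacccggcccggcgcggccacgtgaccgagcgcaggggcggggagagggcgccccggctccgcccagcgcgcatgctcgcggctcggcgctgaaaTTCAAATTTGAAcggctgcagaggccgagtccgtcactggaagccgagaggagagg
ECT2: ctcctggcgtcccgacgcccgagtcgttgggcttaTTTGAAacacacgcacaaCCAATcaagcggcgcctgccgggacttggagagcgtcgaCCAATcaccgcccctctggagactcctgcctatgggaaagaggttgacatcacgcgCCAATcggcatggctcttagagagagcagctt
PRC1: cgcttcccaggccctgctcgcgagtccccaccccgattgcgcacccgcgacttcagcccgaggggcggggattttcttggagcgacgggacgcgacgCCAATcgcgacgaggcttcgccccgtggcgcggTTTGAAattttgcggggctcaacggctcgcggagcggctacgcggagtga
SHCBP1: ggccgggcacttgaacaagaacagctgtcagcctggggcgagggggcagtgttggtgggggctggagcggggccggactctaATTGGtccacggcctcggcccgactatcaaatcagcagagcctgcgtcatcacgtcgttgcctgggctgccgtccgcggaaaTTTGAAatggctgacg

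CHR letters lay close to the start in ANLN, PRC1, SHCBP1 and CIT. In ANLN a match on each strand abutted the other, from base -26 to -21 and from base -20 to -15. PRC1 had its CHR match at bases -20 to -15 with a CCAAT box from base -53 to -49, SHCBP1 had one at bases 15 to 20 after the start, and CIT had one at bases 11 to 16 on the opposite strand. CIT and SHCBP1 also had a farther match outside the stretch shown, at bases -208 to -203 and -214 to -209. ECT2 had matches at bases -115 to -110 and 35 to 40 from the upstream start, the latter beyond the stretch shown, and its second window, at the downstream start, held CHR matches only at -242 to -237 and -182 to -177. CHR letters were thus found in the windows of 5 of the 5 members that had one, ECT2 counting with 2 windows. Of all 35116 windows of the same length 16.4% held them, and 9.33% held them within the stretch printed here. CCAAT letters were in the windows of CIT (3 matches), ECT2 (3 at the upstream start), SHCBP1 (2) and PRC1 (1), and in 34.6% of all windows. Both together were in 6.38% of all windows. The E2F letters TTTGGCGC or TTTCCCGC, searched on both strands, were in 2.27% of all windows and in none of the members'. No match overlapped another, and a match of letters is a description and not evidence of binding.

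**Figure D1:**
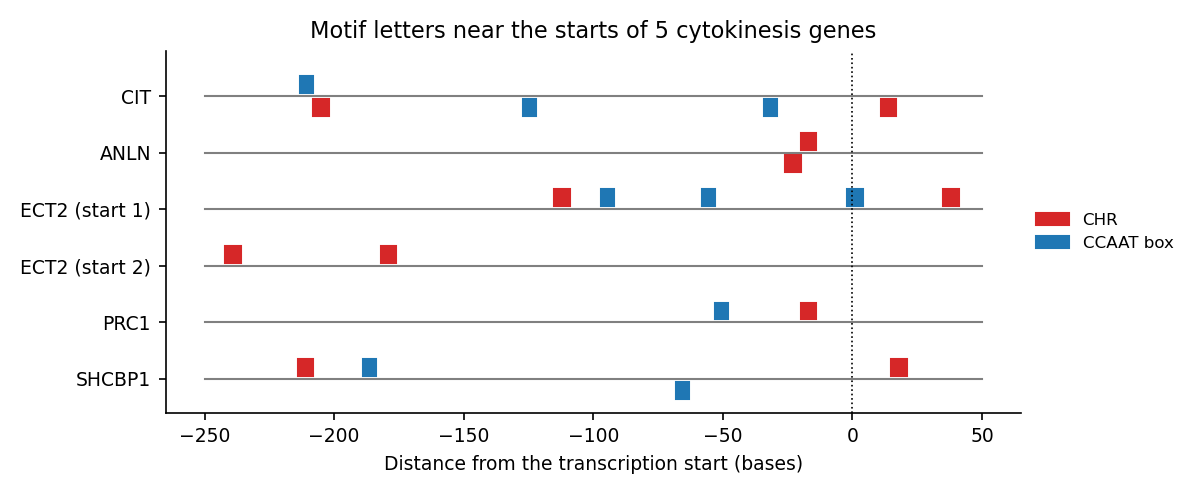
Positions of CHR matches (red) and CCAAT matches (blue) in the RefSeq windows of 5 members, with the distance from the transcription start in bases on the x axis; boxes above a line are on the strand of the gene and boxes below it on the other strand. CHR matches lie within 30 bases of the start in ANLN, PRC1, SHCBP1 and CIT.

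The time course had the same outline in most of these genes. All 6 were at their lowest at 5 h and at their highest at 15 h, in RNA and in footprints. For ANLN, ECT2, RACGAP1, PRC1 and SHCBP1 the order of the mean levels was 5 h, 0 h, 10 h and 15 h in both assays. CIT alone of the 6 had 10 h below 0 h, in both assays. The 4 libraries of neighbouring times in these orders did not overlap in any of the 6 genes, with the exception of PRC1 RNA, in which 10 h (from 136 CPM) overlapped 0 h (up to 143 CPM). The orders were taken from these same means, and the share of all genes with such a separation was not computed. Nothing is therefore read from the lack of overlap.

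**Figure D2:**
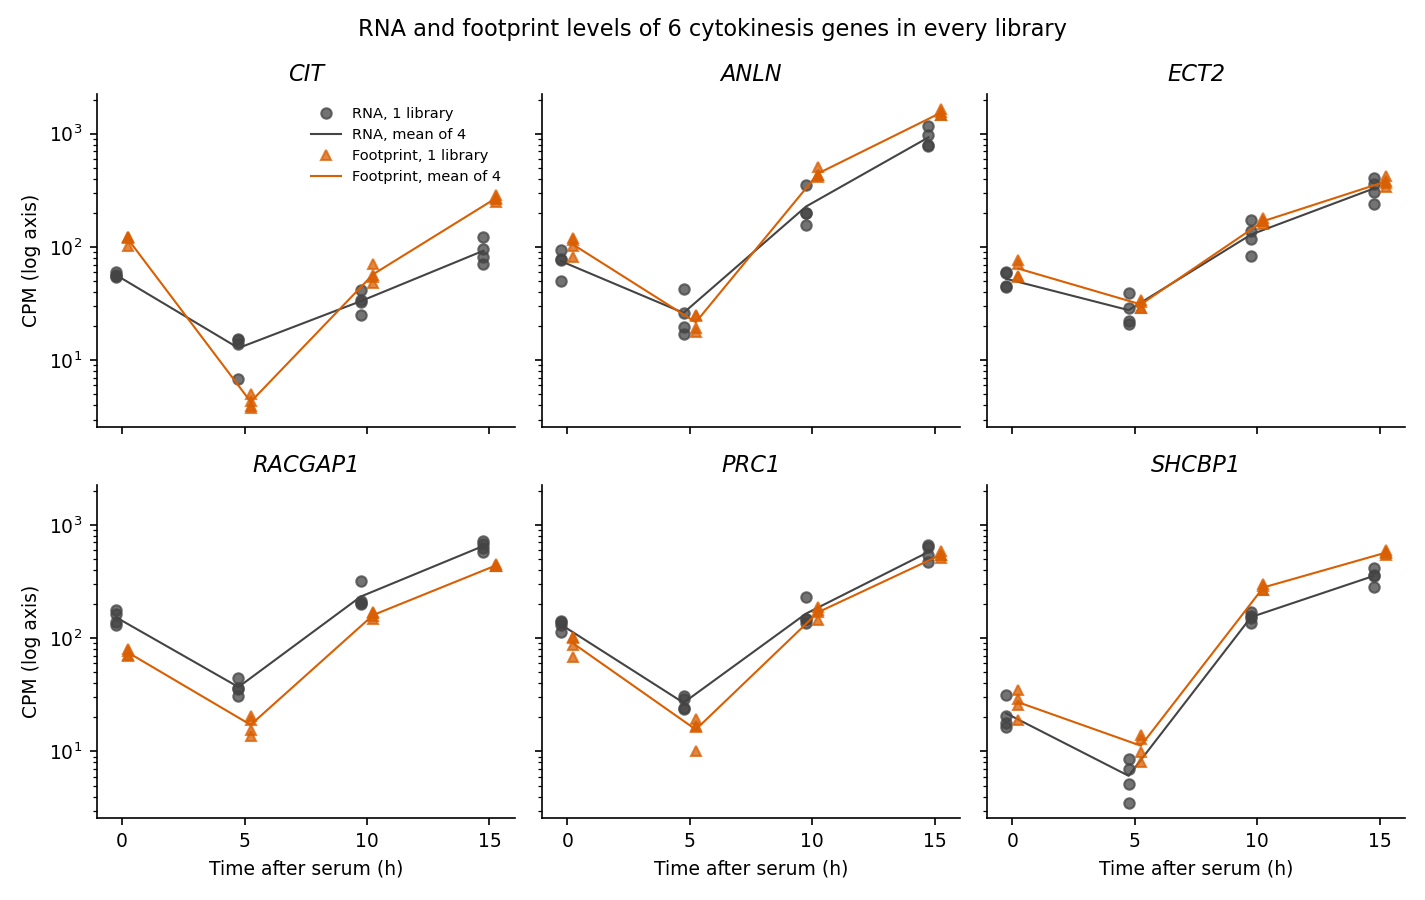
CPM on a log axis against hours after serum for each of the 6 genes, with 1 point per library (grey circles RNA, orange triangles footprints) and lines through the means of 4 libraries. Every gene is lowest at 5 h and highest at 15 h, and CIT footprints fall to between 3.8 and 5.07 CPM at 5 h.

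PRC1 and RACGAP1 build the midzone, and per kilobase their RNA was the highest of the 6 in starved cells, at 74.7 ± 7.03 and 83.2 ± 11.6 CPM per kilobase (SD, n = 4). PRC1 (ENSG00000198901, chr15:90966040-90994535) had RNA at 143, 114, 131 and 138 CPM in libraries 1 to 4 at 0 h and at 24.2, 29.1, 30.6 and 23.8 CPM at 5 h. By 10 h it was 229, 146, 147 and 136 CPM, and the 15 h libraries gave 659, 470, 545 and 633 CPM. The 5 h libraries lay far below all others, 10 h was back near the starved level, and 15 h was above everything. PRC1 footprints had the same order of times, with 67.8 to 103 CPM at 0 h, 10.1 to 19.3 at 5 h, 144 to 187 at 10 h and 514 to 582 at 15 h. At 10 h they lay above every starved library, with a mean 1.89-fold that of 0 h, against 1.25-fold in RNA. RNA reads of PRC1 cannot be parted from those of its antisense neighbour PRC1-AS1 (chr15:90966369-90988624), since the sources used here do not say whether counting used strand.

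RACGAP1 (ENSG00000161800, chr12:49989162-50033440), the GTPase-activating subunit of centralspindlin, had RNA at 177, 131, 165 and 139 CPM at 0 h and at 44.9, 31.1, 36.5 and 35.7 CPM at 5 h, then at 317, 203, 212 and 201 CPM for 10 h and 722, 578, 622 and 682 CPM for 15 h. Its footprints were at 69.3 to 79.9 CPM, 13.7 to 20.5, 147 to 169 and 429 to 450 in the same order. These 2 midzone genes moved almost in parallel, with a Pearson r of 0.991 between their log2 CPM over the 16 RNA libraries and 0.993 over the 16 footprint libraries. Such correlations describe a shared time course measured in the same libraries. Reads of RACGAP1 could be shared with its pseudogene RACGAP1P1 (chr12:45062618-45065411), depending on how the counting treated them.

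One RNA library stood apart at 10 h. Library 1 held the highest RNA level of that time in ANLN, ECT2, RACGAP1 and PRC1 (RACGAP1 at 317 CPM against 201 to 212 in the other 3), but not in CIT or SHCBP1. Without it the log2 change of RACGAP1 RNA from 5 h to 10 h was 2.53 in place of 2.67 and that of ANLN was 2.87 in place of 3.13, and from 10 h to 15 h they were 1.71 in place of 1.48 and 2.37 in place of 2.03. Footprint library 1 at 10 h was not set apart in this way.

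ECT2 and ANLN link the midzone to the ring. ECT2 (ENSG00000114346, chr3:172750726-172829265) had the shallowest trough of the 6 in both assays. In RNA the 0 h libraries held 59.4, 45.6, 44.8 and 59.8 CPM and the 5 h libraries 20.7, 22.1, 38.9 and 29.2, followed by 173, 83.6, 119 and 140 for 10 h and 408, 240, 306 and 356 for 15 h. Its footprints ran from 54.7 to 76.0 CPM at 0 h, 28.9 to 34.0 at 5 h, 158 to 179 at 10 h and 340 to 422 at 15 h. The groups did not overlap in either assay, and 5 h was below and both later times above 0 h. In RNA the gap was small, with 5 h up to 38.9 CPM and 0 h from 44.8. Nothing is read from this separation, as stated above for all 6 genes.

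ANLN (ENSG00000011426, chr7:36389862-36453791), the ring scaffold, ended with the highest footprint level per kilobase of the 6. Its RNA was at 77.5, 77.3, 50.5 and 94.2 CPM at 0 h, 25.9, 17.1, 42.4 and 19.5 at 5 h, 354, 158, 198 and 199 at 10 h and 1161, 790, 777 and 981 at 15 h. Its footprints were at 120, 82.0, 115 and 102 CPM at 0 h, 25.1, 24.7, 19.2 and 17.8 at 5 h, 434, 506, 433 and 411 at 10 h and 1454, 1662, 1451 and 1543 at 15 h. From the 5 h trough to 15 h the mean rose 70.5-fold in footprints and 35.4-fold in RNA. The 15 h footprint libraries were close together, with an SD of 99.4 on a mean of 1527 CPM (n = 4).

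SHCBP1 (ENSG00000171241, chr16:46578591-46621379), the midbody protein, was the member furthest along at 10 h. In RNA the 0 h libraries held 20.6, 18.0, 31.8 and 16.4 CPM and the 5 h libraries 5.18, 7.02, 3.53 and 8.65 (21 counts in all), followed by 158, 169, 136 and 151 for 10 h and 365, 413, 285 and 352 for 15 h. Its footprints were at 34.6, 18.9, 29.3 and 25.8 CPM at 0 h, 14.1, 12.9, 8.03 and 9.89 at 5 h, 267, 299, 287 and 268 at 10 h and 559, 575, 545 and 594 at 15 h. By 10 h every library was far above every starved library, and the mean stood at 43.4% of its 15 h value in RNA and 49.3% in footprints. That share was the highest of the 6, the others lying between 24.5% (ANLN) and 39.3% (ECT2) in RNA and between 21.4% (CIT) and 44.7% (ECT2) in footprints. Against 0 h the 10 h mean of SHCBP1 was 7.07-fold in RNA and 10.3-fold in footprints.

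CIT (ENSG00000122966, chr12:119685791-119877320), the kinase of the furrow and midbody, kept another course than the other 5 members. Its RNA was at 55.7, 56.1, 54.9 and 59.8 CPM at 0 h, 6.90, 15.0, 15.3 and 14.1 at 5 h, 33.8, 41.3, 32.8 and 25.2 at 10 h and 96.6, 122, 71.0 and 81.2 at 15 h. Its footprints were at 123, 102, 119 and 122 CPM at 0 h, 4.35, 3.98, 3.8 and 5.07 at 5 h, 56.5, 70.1, 54.6 and 48.4 at 10 h and 250, 290, 268 and 266 at 15 h. CIT footprints thus nearly vanished at 5 h, to 1.60% of their 15 h mean, while its RNA stood at 13.9% of its own. At 10 h both were still under every starved library, with means of 0.588-fold (RNA) and 0.493-fold (footprints) of 0 h. The starved level was also high for CIT, at 61.2% of the 15 h mean in RNA and 43.4% in footprints, where the other 5 had 6.14% to 23.5% and 4.78% to 17%.

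Levels of different genes can be set side by side only per length of the counted sequence. At 15 h the mean RNA level per kilobase was 354 ± 34.5 CPM (SD, n = 4 here and below) for RACGAP1, 328 ± 49.0 for PRC1 and 280 ± 54.8 for ANLN, a group whose means lie within their spread. SHCBP1 followed at 181 ± 26.9 and ECT2 at 126 ± 27.6 CPM per kilobase, and CIT was lowest at 15.1 ± 3.57. In footprints ANLN led with 461 ± 30 CPM per kilobase, followed by PRC1 at 308 ± 16.3, SHCBP1 at 290 ± 10.9, RACGAP1 at 238 ± 4.93, ECT2 at 146 ± 13 and CIT at 43.6 ± 2.70. PRC1 and SHCBP1 were within their spread, and the other neighbours were farther apart. RACGAP1 was thus above SHCBP1 in RNA and below SHCBP1, PRC1 and ANLN in footprints.

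The changes were then estimated with edgeR's quasi-likelihood fits over all libraries of an assay, as log2 ratios with standard errors (SE), and a gene was called when its Benjamini-Hochberg adjusted p over all genes tested was under 0.05. From 0 h to 5 h all 6 lay past that threshold on the lower side in RNA and all 6 in footprints, where 16.7% of the 8775 genes tested in RNA and 40.5% of the 10959 tested in footprints were called lower and 19.2% and 35.2% higher. These contrasts were in view when the genes were listed, so the counts of the 6 are a description only. In RNA PRC1 (-2.27 ± 0.20), CIT (-2.08 ± 0.25) and RACGAP1 (-2.06 ± 0.19) had the largest falls, then SHCBP1 (-1.76 ± 0.30), ANLN (-1.53 ± 0.31) and ECT2 (-0.90 ± 0.26). In footprints CIT stood far from the rest at -4.74 ± 0.12, a 26.8-fold fall that was the 18th lowest of the 10959 changes. PRC1 (-2.53 ± 0.18), ANLN (-2.27 ± 0.13) and RACGAP1 (-2.12 ± 0.09) followed, then SHCBP1 (-1.26 ± 0.16) and ECT2 (-1.04 ± 0.10). ECT2 RNA was no longer past the threshold when the RNA libraries numbered 4 were left out (-0.89).

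From 5 h to 10 h all 6 lay past the threshold on the higher side in both assays, beside 10.1% of all genes higher and 9.56% lower in RNA and 31% higher and 30.7% lower in footprints. SHCBP1 had the largest rise of the 6, 24.1-fold in RNA (4.59 ± 0.24, the 7th highest of 8775 changes) and 25-fold in footprints (4.64 ± 0.12). ANLN came next with 3.13 ± 0.29 in RNA and 4.37 ± 0.12 in footprints. CIT had the smallest rise in RNA (1.31 ± 0.26) but the third largest in footprints (3.73 ± 0.13). RACGAP1 (2.67 ± 0.18 in RNA and 3.23 ± 0.08 in footprints) and PRC1 (2.60 ± 0.20 and 3.44 ± 0.16) were close to each other in both, and ECT2 had the smallest footprint rise (2.20 ± 0.25 and 2.45 ± 0.09).

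From 10 h to 15 h all 6 were higher still and past the threshold in both assays, beside 3.81% of all genes higher and 2.11% lower in RNA and 20.8% higher and 20.2% lower in footprints. In RNA ANLN had the largest change (2.03 ± 0.24) and SHCBP1 the smallest (1.20 ± 0.16), with PRC1 (1.81 ± 0.16), CIT (1.48 ± 0.20), RACGAP1 (1.48 ± 0.15) and ECT2 (1.34 ± 0.20) between them. In footprints CIT had the largest (2.22 ± 0.08), then ANLN (1.78 ± 0.09), PRC1 (1.68 ± 0.12), RACGAP1 (1.45 ± 0.06), ECT2 (1.16 ± 0.07) and SHCBP1 (1.02 ± 0.08). SHCBP1 thus had the largest rise of the 6 from 5 h to 10 h and the smallest from 10 h to 15 h, in both assays.

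Over the whole course, 15 h against 0 h, all 6 lay past the threshold on the higher side in both assays, as did 25.4% of all genes in RNA (25.4% lower) and 40.1% in footprints (39.6% lower). The median of the 6 was 2.39 in RNA and 2.58 in footprints, where the median over all genes was -0.04 and -0.01. SHCBP1 ended 16.4-fold above 0 h in RNA (4.03 ± 0.20) and 21.2-fold in footprints (4.41 ± 0.11), and ANLN 12.4-fold (3.63 ± 0.27) and 14.6-fold (3.87 ± 0.11). ECT2, PRC1 and RACGAP1 lay between 4.26-fold and 6.25-fold in RNA and between 5.89-fold and 6.01-fold in footprints. CIT ended only 1.64-fold above 0 h in RNA (0.72 ± 0.19) and 2.31-fold in footprints (1.21 ± 0.07).

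**Figure D3:**
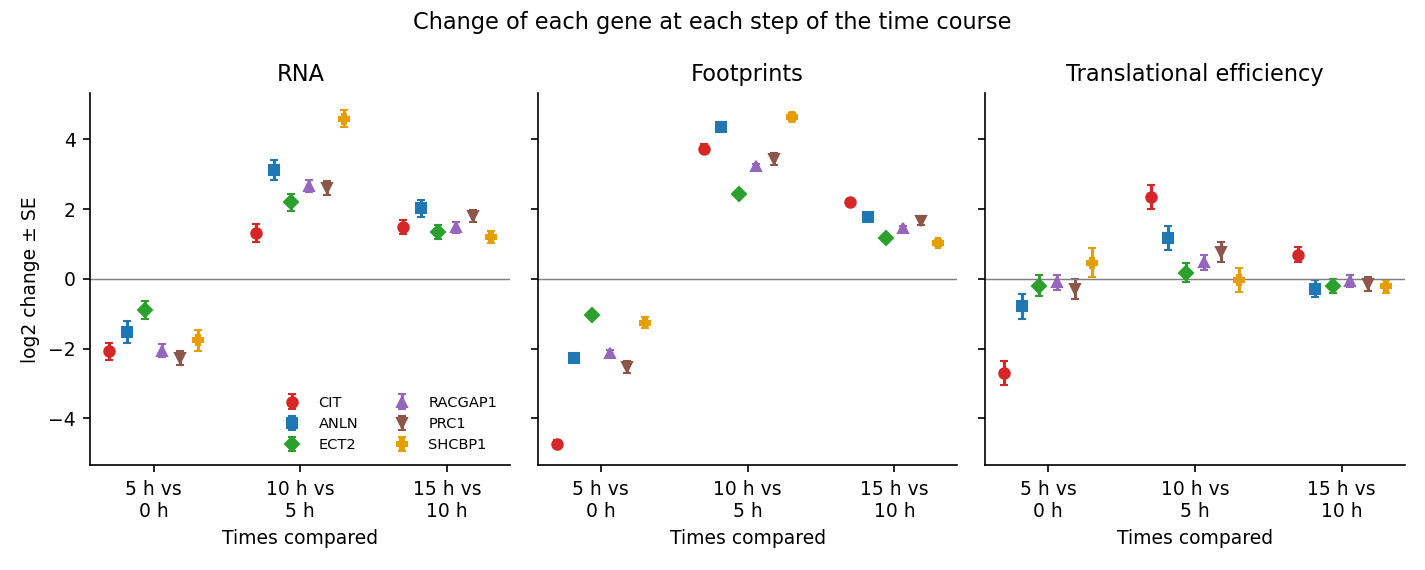
log2 change with SE of each of the 6 genes (colours) from 0 h to 5 h, 5 h to 10 h and 10 h to 15 h, in RNA, footprints and translational efficiency (TE, the footprint change minus the RNA change). CIT has the largest TE changes, at -2.71 from 0 h to 5 h and 2.36 from 5 h to 10 h.

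In the ratio of footprints to RNA, CIT had the largest changes of the 6 at the first 2 steps, a course that was in view when the genes were listed. TE changes were estimated as the assay-by-time term of a single fit over the 32 libraries and 8736 genes. From 0 h to 5 h CIT TE fell by 2.71 ± 0.34 on the log2 scale, a 6.53-fold loss of footprints relative to RNA and the lowest of the 8736 changes. CIT was the 1 member past the threshold, where 2.34% of all genes were called lower and 4.13% higher, and nothing is read from that count. The TE changes of the other 5 were -0.78 ± 0.36 (ANLN), -0.29 ± 0.28 (PRC1), -0.19 ± 0.30 (ECT2), -0.09 ± 0.22 (RACGAP1) and 0.47 ± 0.42 (SHCBP1). From 5 h to 10 h CIT TE rose by 2.36 ± 0.34, the 8th highest change, again with CIT the 1 member past the threshold, beside 0.595% of all genes higher and 0.0572% lower. ANLN followed with 1.17 ± 0.34, past the threshold in DESeq2 and in edgeR with the libraries numbered 1, or RNA library 1 at 10 h alone, left out (1.43 in the latter), and PRC1 with 0.77 ± 0.28.

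CIT at 5 h rests on few reads. There were 45 RNA counts and 124 footprint counts over the 4 libraries of that time. RNA library 1 was low among them, at 6.90 CPM against 14.1 to 15.3 in the other 3. Without it the TE change of CIT from 0 h to 5 h was -2.83, and from 5 h to 10 h it was 2.47.

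As a level, log2 TE of CIT was 1.13 ± 0.15 (SE) at 0 h and -1.57 ± 0.29 at 5 h, then 0.78 ± 0.16 and 1.48 ± 0.12 at the later times. That placed CIT at the 89.8th percentile of all genes in starved cells, the 11.9th at 5 h and the 93.7th at 15 h. RACGAP1 kept the lowest TE of the 6 at 0, 10 and 15 h, with -0.95 ± 0.13 at 0 h and -0.62 ± 0.11 at 15 h, where the median gene was at -0.24 and -0.27. SHCBP1 lay between 0.42 and 0.89 at all times and ECT2 between 0.17 and 0.39. ANLN went from 0.57 ± 0.22 at 0 h to -0.21 ± 0.28 at 5 h and 0.96 ± 0.18 at 10 h. These levels carry the scaling of each assay, so their zero has no meaning of its own.

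From 10 h to 15 h none of the 6 was past the threshold in TE, and neither was any of the 8736 genes (0% higher and 0% lower in edgeR, with 542 genes at an unadjusted p under 0.05 and 2 called by DESeq2). The changes of the 6 ran from -0.28 (ANLN) to 0.69 (CIT), and 1 of them had an unadjusted p under 0.05. From 0 h to 15 h none of the 6 was past the threshold in TE with edgeR or DESeq2 and none had an unadjusted p under 0.05, beside 7.03% of all genes higher and 3.94% lower. Their TE changes ran from -0.22 (ECT2) to 0.34 (CIT), with SE between 0.17 and 0.28. The deep trough of CIT TE was thus a feature of 5 h that was no longer seen when the ends of the course were compared.

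**Figure D4:**
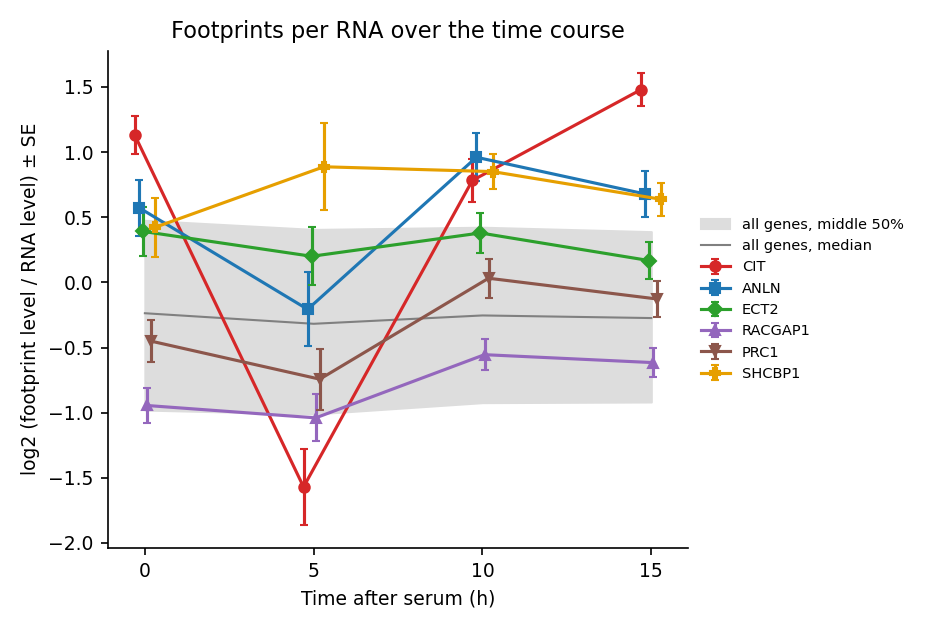
log2 ratio of footprint to RNA level with SE (y axis) against hours after serum for the 6 genes, over the median (grey line) and middle 50% (grey band) of 8736 genes. CIT goes from 1.13 at 0 h to -1.57 at 5 h and 1.48 at 15 h, while SHCBP1 stays between 0.42 and 0.89.

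The wider machinery of cytokinesis was followed through 3 lists by role. Calls of the fit across all genes are given for them as a description, since the lists too were drawn up with results of these data known. The midzone and passenger list had 10 of 11 genes in the table, among them centralspindlin's kinesin KIF23 and the chromosomal passenger kinase AURKB, all tested. At 5 h 6 of the 10 fell in RNA and all 10 in footprints, and none rose, beside 16.7% and 40.5% of all genes called lower. The list's median change at 5 h was -1.40 in RNA and -2.26 in footprints, where the median over all genes was -0.03 and -0.07. From 5 h to 10 h 9 of 10 rose in RNA and 10 of 10 in footprints, beside 10.1% and 31% of all genes called higher. From 10 h to 15 h all 10 rose in both, beside 3.81% and 20.8%. Against 0 h, 9 of 10 were higher at 15 h in RNA (median 2.16) and 10 of 10 in footprints (median 2.84), beside 25.4% and 40.1% of all genes. The median of the 6 members was close to these, at 2.39 and 2.58.

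Among the midzone and passenger genes AURKB rose 12.5-fold from 0 h to 15 h in RNA (3.64 ± 0.24) and 29.7-fold in footprints (4.89 ± 0.13). KIF23, the partner of RACGAP1, rose 10.6-fold (3.41 ± 0.24) and 16-fold (4.00 ± 0.14), where RACGAP1 itself was 4.26-fold and 5.89-fold above 0 h; the difference between the partners was not tested. The exception at 15 h in RNA was the midzone kinesin KIF20A (-0.08 ± 0.15, named here after its values were seen), whose RNA change at 5 h was -4.61 ± 0.21. As in CIT, the KIF20A mean at 10 h was below 0 h, in RNA (46.4 against 286 CPM) and in footprints (32.2 against 168). BIRC5, also named after its values were seen, shared this (64.9 against 138 CPM in RNA and 40.3 against 49.45 in footprints). In the rest of this list 10 h was above 0 h in both assays. ARHGAP11A, a GTPase-activating protein for RhoA, rose 7.27-fold in RNA (2.86 ± 0.26), and the passenger subunit CDCA8, borealin, 10.5-fold in footprints (3.39 ± 0.10).

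The contractile ring list had 19 of 20 genes in the table and tested. At 5 h 6 rose and 0 fell in RNA (median 0.38), and 14 rose and 3 fell in footprints (median 0.37). Of all genes 19.2% were called higher and 16.7% lower in RNA and 35.2% higher and 40.5% lower in footprints. From 0 h to 15 h 10 rose and 1 fell in RNA (median 0.64), and 17 rose and 1 fell in footprints (median 0.62), beside 25.4% higher and 25.4% lower of all genes in RNA and 40.1% and 39.6% in footprints. The formin DIAPH3, which nucleates actin filaments, rose most, 4.41-fold in RNA (2.14 ± 0.15) and 7.3-fold in footprints (2.87 ± 0.08). MYL12A RNA averaged 180.5 ± 37.1 CPM at 0 h and 437.9 ± 95.2 at 15 h (SD, n = 4). By these means its rise was larger than that of SEPTIN11 (45.8 to 101.9 CPM) or ACTN1 (123.1 to 270.1 CPM). SEPTIN11 (1.15 ± 0.18) and the actin crosslinker ACTN1 (1.13 ± 0.37) rose in RNA, and the formin DIAPH1 (1.64 ± 0.06) and ACTN1 (1.53 ± 0.06) in footprints. From 5 h to 10 h and from 10 h to 15 h DIAPH3 was the only ring gene called in RNA, at 1.18 and 1.31. The only fall at 15 h, in both assays, was that of SEPTIN6 (-1.08 ± 0.25 in RNA and -1.21 ± 0.08 in footprints), named here after its value was seen.

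The midbody and abscission list, mostly ESCRT-III subunits and their partners that cut the last bridge between daughter cells, had 22 of 23 genes in the table, 19 tested in RNA and 21 in footprints. At 5 h 2 rose and 3 fell in RNA and 8 rose and 8 fell in footprints, the latter near the 35.2% higher and 40.5% lower of all genes. From 0 h to 15 h 3 rose and 5 fell in RNA (median 0.01) and 8 rose and 6 fell in footprints (median 0.01), where 25.4% of all genes were called each way in RNA and 40.1% higher and 39.6% lower in footprints. CEP55, which brings the ESCRT machinery to the midbody, rose most in its list, in both assays. Its RNA averaged 46.6 ± 16.6 CPM at 0 h and 8.0 ± 2.38 at 5 h, then 93.4 ± 63.4 and 376 ± 106 CPM at the later times (SD, n = 4), a change of 3.01 ± 0.36 (SE) from 0 h to 15 h, and its footprints rose by 2.85 ± 0.15. CNTROB, a centriole protein that also acts in abscission, rose in RNA by 1.0 ± 0.31, and the abscission regulator ZFYVE19 fell by 1.24 ± 0.28 there. The microtubule-severing SPAST fell by 0.96 ± 0.09 and the ESCRT-III subunit CHMP4C fell by 0.89 ± 0.16 in footprints.

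**Figure D5:**
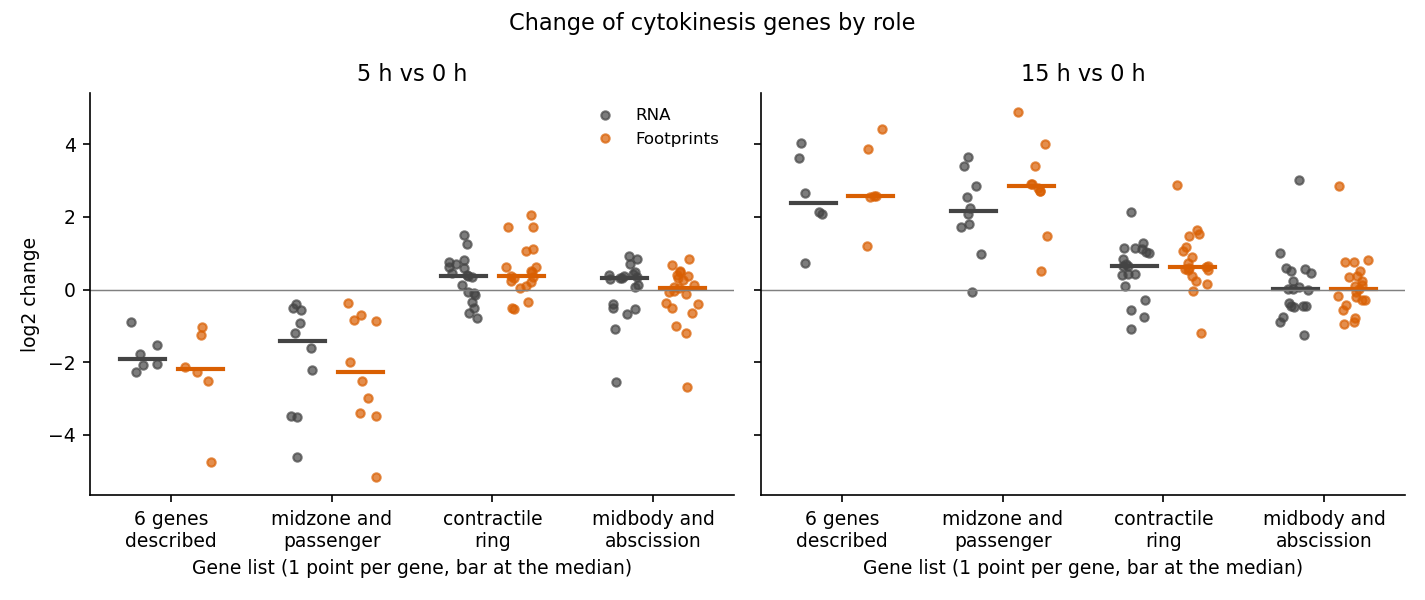
log2 change of every tested gene of the 6 described and of 3 lists of cytokinesis genes, 5 h against 0 h (left) and 15 h against 0 h (right), with RNA in grey, footprints in orange and a bar at each median. Midzone and passenger genes lie with the 6 described, at RNA medians of -1.40 and 2.16, while the ring list has RNA medians of 0.38 and 0.64 and the abscission list 0.32 and 0.01.

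TE of the lists was called in few genes, and at 5 h the median TE change was 0.02 for midzone and passenger genes, 0.17 for ring genes, -0.19 for abscission genes and -0.06 over all genes. At 5 h 3 of 10 midzone and passenger genes fell in TE and 0 rose, beside 2.34% and 4.13% of all genes, and these were the kinesins KIF14 (-2.45 ± 0.45, adjusted p = 0.000159), KIF20B (-1.51 ± 0.41, adjusted p = 0.020) and KIF4A (-1.29 ± 0.31, adjusted p = 0.005, edgeR quasi-likelihood, Benjamini-Hochberg). KIF14 binds citron kinase and PRC1, and KIF4A works with PRC1 on midzone microtubules. KIF14 and KIF20B are named here after their values were seen. KIF14 RNA was at 23.8 ± 2.03 CPM at 0 h and 16.2 ± 2.01 at 5 h, a change of -0.56 ± 0.34 that was not called, while its footprints went from 21.2 ± 2.5 to 2.64 ± 0.58 CPM. The same 3 kinesins were the only list genes called higher in TE from 5 h to 10 h apart from DIAPH3 (0.70 ± 0.17), KIF14 at 2.90 ± 0.43, KIF20B at 2.09 ± 0.38 and KIF4A at 1.97 ± 0.31. That DIAPH3 call was lost with RLE factors, with no low-count filter and in every fit that left libraries out. The KIF20B call from 5 h to 10 h was lost without the libraries numbered 3 or 4. DESeq2 also called 3 midzone and passenger genes lower at 5 h and 3 higher from 5 h to 10 h. With the libraries numbered 3 or 4 left out KIF14 was the only list gene called in TE at 5 h, and without number 2 there were 6, with ACTN1, SEPTIN2 and SEPTIN9 added. Without number 1 KIF4A was not called, and with no low-count filter, or without RNA library 1 at 5 h, KIF20B was not. These values rest on few reads at 5 h, with 54 RNA and 77 footprint counts for KIF14, 39 and 76 for KIF4A and 139 and 360 for KIF20B.

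At 5 h no ring gene and no abscission gene was called in TE by edgeR or DESeq2 (3 and 2 had an unadjusted p under 0.05). From 5 h to 10 h no abscission gene was called in TE by either tool, and none had an unadjusted p under 0.05. From 0 h to 15 h TE rose in CDCA8 (1.52 ± 0.28), AURKB (1.10 ± 0.33) and KIF4A (0.79 ± 0.17). Among ring genes DIAPH3 (0.58 ± 0.16) and RHOA (0.41 ± 0.12, named here after its value was seen) rose in TE, and ROCK2 (-0.67 ± 0.20), a RhoA effector kinase, and SEPTIN2 (-0.48 ± 0.16) fell. These 7 calls became 3 without the libraries numbered 1 (CDCA8, AURKB and KIF4A), 4 without number 3 (CDCA8, KIF4A, DIAPH3 and RHOA) and 2 without number 4 (CDCA8 and KIF4A). Without number 2 there were 9, with AURKB and RHOA lost and FLNA, ROCK1 and the abscission genes SPAST and ZFYVE19 added. With time as the only factor and no library left out, abscission genes had no TE call from 0 h to 15 h in either tool, with 3 at an unadjusted p under 0.05.

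Within the 6, CIT was the least like the others. Its Pearson r with each of them, over log2 CPM of 16 libraries, ran from 0.713 (SHCBP1) to 0.903 (PRC1) in RNA and from 0.731 to 0.924 in footprints, with the same genes at the ends. The other 10 pairs lay between 0.905 and 0.991 in RNA and between 0.930 and 0.995 in footprints, with ANLN and ECT2 the closest pair in footprints. The genes outside the 6 whose log2 CPM came closest to their mean were, in RNA, TOP2A (r = 0.992), SPAG5 (0.991), KIF11 (0.990), UBE2C (0.990), CCNA2 (0.989) and NCAPG2 (0.987) among 8344 genes. In footprints they were HMGB2 (0.999), SMC4 (0.999), PBK (0.999), SGO2 (0.999), KIF22 (0.998) and KIF11 (0.998) among 7976 genes. KIF11, the kinesin that separates spindle poles, was in both sets. Its RNA averaged 66.5, 17.2, 145 and 503 CPM at 0, 5, 10 and 15 h. All these points share 16 libraries at 4 times, so a high r says no more than that the time courses had the same shape.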

How the data were processed

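Per the submitters' processing notes, reads were aligned with STAR 2.5.4a to GRCh38 and counted with featureCounts 1.5.1. Which annotation was used, whether counting used strand and how molecular identifiers were handled are points not given in the sources used here. Deposited by the authors was 1 table of raw counts, whole numbers per gene and library without normalisation, for 19023 Ensembl genes, of which 18905 matched a symbol. Its length column is a multiple of 3 in 96.46% of genes and is read as coding sequence. All 32 columns matched a sample label, and 0 were left unmatched.

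From these counts, TMM factors within each assay gave CPM, with a prior count of 2 for log2 CPM. Genes passing filterByExpr were fitted with edgeR 4.0.16 (quasi-likelihood, robust, R 4.3.3), time as the only factor, in each assay, and TE as the interaction over 32 libraries. P-values were Benjamini-Hochberg adjusted over all genes tested, with a threshold of 0.05. Between replicates, edgeR's common coefficient of variation was 0.185 for RNA and 0.0547 for footprints. The series' design text calls the 4 libraries of a time biological replicates. No 2 replicates differed by sampling noise alone (chi-square per degree of freedom from 1.37). DESeq2 1.42.0 was an alternative, with RLE factors, no low-count filter, a replicate block, fits of only the times compared and leaving out libraries. The procedure was also run on simulated data, and nothing is read from that run here. Intervals on counts would cover counting error only.

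The members and gene lists were chosen with earlier results of these data known. Genes named were the 6 members, up to 3 called genes per list and assay with the largest change from 0 h to 15 h, and the 6 genes per assay with the highest r with the members' mean among genes with a mean CPM of at least 10. Promoter windows are from RefSeq (GRCh38.p14). Listed genes without a row, 1 in each list, were not analysed here.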

Additional observations from a re-analysis of the deposited data

Results flagged for a closer look

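Each group of 4 libraries of each member in each assay, 48 groups in all, was examined for a library whose gap to its nearest neighbour took up an unusually large part of the range of the group. Chance flags about 1 in 20 groups. CIT RNA at 5 h was low in library 1, at 6.90 CPM with the next at 14.1 CPM. CIT footprints at 0 h were low in library 2, at 102 CPM with the next at 119 CPM. RNA library 1 at 10 h was high in RACGAP1, at 317 CPM with the next at 212 CPM, and in PRC1, at 229 CPM with the next at 147 CPM.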

How the results depend on the processing

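The 6 members kept the direction of their RNA and footprint changes under every alternative run. All 6 stayed past the threshold in both assays, except ECT2 RNA from 0 h to 5 h without the libraries numbered 4. CIT stayed past it in TE from 0 h to 5 h and from 5 h to 10 h under every alternative. In TE, 9 values that were not past the threshold took another sign with some libraries left out, among them PRC1 (0.06) and ECT2 (0.21) and the members' median (0.02 in place of -0.24) from 0 h to 5 h without number 3, and RACGAP1 there (0.02 in place of -0.09) without RNA library 1 at 5 h. ANLN TE from 5 h to 10 h passed the threshold with DESeq2, without number 1 and without RNA library 1 at 10 h. The cause was not tested.

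With a replicate block, calls over all genes went from 519 to 1170 in RNA from 10 h to 15 h. TE calls went from 565 to 1048 (0 h to 5 h), from 57 to 146 (5 h to 10 h), from 0 to 8 (10 h to 15 h) and from 958 to 1542 (0 h to 15 h), and those in the 3 lists at 5 h from 3 to 8. In the lists RNA calls went from 17 to 22 at 5 h and from 28 to 33 from 0 h to 15 h. The replicate block changed no call of a member. Replicate numbers are shared across groups, but no label ties a number to a culture or day, and deviations of same-numbered libraries correlated at -0.27 to 0.57 in RNA (median 0.20, against -0.08 for different numbers) and -0.06 to 0.17 in footprints (0.03 against -0.01). All same-numbered RNA pairs of 0 h and 15 h were above 0.1 (0.12 to 0.35), as were those of numbers 1 and 2 at all times, but in each other RNA comparison the pair of number 3 or of number 4 was below it, so the block was kept as an alternative and a shared origin of RNA libraries is a hint from the data only.

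DESeq2 called 115 genes in TE from 5 h to 10 h and 2 from 10 h to 15 h, and with no low-count filter edgeR called 1 in the latter. Leaving out RNA library 1 at 5 h gave 1 call there and RNA library 1 at 10 h gave 4, both chosen after seeing the data.

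Leaving out the libraries of each number in turn, or either of those 2 RNA libraries, gave 1000 to 1641 calls for RNA from 5 h to 10 h (1726 in all) and 202 to 717 from 10 h to 15 h. In TE it gave 293 to 664, 19 to 82, 0 to 4 and 492 to 1055 calls for the 4 comparisons in the order above. In the 3 lists it gave 10 to 19 RNA calls at 5 h (17 in all), and in TE 1 to 6 at 5 h, 2 to 3 from 5 h to 10 h (4 in all) and 2 to 9 from 0 h to 15 h (7 in all), with the lowest counts without number 3 or 4. The members' median RNA change at 5 h lay between -2.12 and -1.80 (-1.91 in all). The RNA libraries, shallower than the footprint libraries, limit TE: CIT had 45 RNA counts and SHCBP1 21 at 5 h.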
